A study of Homo sapiens with 4 samples.

Results

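Of the 39654 FLI1 peaks called in IFN-γ-treated HK1 cells, 3867 (9.75%) were intergenic peaks absent from the control list that carried neither an AP-1 heptamer nor a long GGAA repeat at the summit. A peak was taken if it overlapped no control peak by 1 bp, lay more than 3 kb from every transcription start site (TSS) of GENCODE 44 and had its summit in no protein-coding gene body. Within 100 bp of the summit it also had to lack TGACTCA and TGAGTCA on either strand and any run of 4 or more tandem GGAA units. HK1 is an established nasopharyngeal carcinoma (NPC) line. All cells overexpressed Flag-tagged FLI1 and received PBS (the control) or IFN-γ for 24 h. Chromatin was precipitated through the Flag tag, which endogenous FLI1 does not carry. With 1 library per condition, no test of the treatment was possible. Peaks share a library and are not replicates of a treatment.

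FLI1 is a transcription factor of the ETS family, whose members bind a GGAA core and extend it on both sides with sequence that differs between subfamilies. ETS factors often bind next to other factors, and composite elements with AP-1 (dimers of FOS and JUN proteins) and with interferon regulatory factors (IRFs) are known. IFN-γ acts through the kinases JAK1 and JAK2 and through the gamma-activated sequence (GAS) in target genes, and it induces IRFs, which bind the interferon-stimulated response element (ISRE). Much of the regulation by these factors takes place at enhancers far from promoters. Tandem GGAA repeats are known as binding places of the EWS-FLI1 fusion of Ewing sarcoma, and both they and AP-1 elements were set aside by the rule.

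Step by step, 15451 peaks had no control peak, 11140 of them were also away from TSSs and 6480 were also outside coding genes. Of those 6480 peaks, 1391 held the AP-1 heptamer, 1242 held a run of 4 or more GGAA units and 20 held both. Absence from the control list was thus a property of 39.0% of all IFN-γ peaks, and it means only that a site was under the calling cutoff of the control library. The members were compared with 3 sets of peaks chosen by the same steps with 1 condition changed. These were 3002 IFN-γ-only peaks inside coding genes, 3290 intergenic IFN-γ peaks that overlapped a control peak (the shared peaks) and 1508 intergenic peaks found only in the control list.

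The IFN-γ library was the deeper, with a lowest background of 1.54 fragments against 1.06 in the control library, a ratio of 1.46. The number of fragments at a summit (the pileup) and the local background were solved from the deposited fold enrichment and −log10 p. When pileup and background of each member were divided by the ratio of depths, 3432 of 3867 members (88.8%, 95% interval 87.7% to 89.7%) still had a −log10 p above 3.52, the lowest in the control list. The other 435 members had at most 21 fragments, and for these a peak of the same strength would not have been callable in the control library. The scaling allowed for no counting spread in the pileups. How often peaks above the lowest control value would be called in the control library was not tested. All intervals are at 95%, exact for shares (Clopper-Pearson), by Newcombe's method for differences and from order statistics for medians. They cover counting over regions only. Where a share was 0, the limit given is that of 3 counts in the total, which is somewhat below the exact upper bound.

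The sequences at the summits of the 3 strongest members are shown first, as the best-supported examples of the set. Each spans the summit and 100 bases on either side, in GRCh38, with every GGAA core (TTCC on the other strand) in capitals.
upstream of ATP2B1 (chr12:90036734-90036934, plus strand): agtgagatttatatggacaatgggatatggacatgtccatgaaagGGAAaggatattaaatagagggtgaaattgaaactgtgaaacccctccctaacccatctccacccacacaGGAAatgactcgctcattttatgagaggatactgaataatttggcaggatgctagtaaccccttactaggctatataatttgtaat
near NRP1 (chr10:33157204-33157404, plus strand): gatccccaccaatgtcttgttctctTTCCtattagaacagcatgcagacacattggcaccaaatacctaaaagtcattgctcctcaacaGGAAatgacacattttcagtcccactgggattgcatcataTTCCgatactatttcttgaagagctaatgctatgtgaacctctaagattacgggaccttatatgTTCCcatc
upstream of GALM (chr2:38648138-38648338, plus strand): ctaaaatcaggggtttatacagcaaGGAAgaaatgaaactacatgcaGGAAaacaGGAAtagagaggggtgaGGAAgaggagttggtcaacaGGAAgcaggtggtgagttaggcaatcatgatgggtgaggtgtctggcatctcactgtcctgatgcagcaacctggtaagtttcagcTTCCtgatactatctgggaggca

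In the first and second of these windows the core continued as GGAAATGA, an ETS core joined to the first bases of an AP-1 element, while the full heptamer was absent by the rule. The strongest member, chr12:90036289-90037350, had 109 fragments over a background of 3.54 (fold enrichment 24.2, −log10 p 119). It lay 327 kb upstream of *ATP2B1*, a plasma membrane calcium pump, inside a long non-coding RNA (lncRNA) gene. The next, chr10:33156902-33157553, had 102 fragments over 2.83 (fold enrichment 26.9, −log10 p 119). It lay 28.4 kb downstream of the nearest TSS of *NRP1*, a co-receptor for semaphorins and VEGF. Distances to a named gene are from the summit to the nearest start of any of its annotated transcripts. That start can be an alternative one inside the gene. The one upstream of *GALM*, chr2:38648011-38648466, had 76 fragments over 1.62 and the highest fold enrichment of all members, 29.3. Its window held 6 cores but neither the composite nor the FLI1 octamer described next.

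Of the 10 strongest members, the other 7 had 58 to 85 fragments and fold enrichments of 12.3 to 21.4. They lay upstream of *OSBPL3*, *WDR5*, *CHORDC1*, *SNX2*, *IRF8*, *JAZF1* and *NR5A2*, at distances from 10.1 kb for *IRF8* to 524 kb for *CHORDC1*. GGAAATGA was in 6 of the 10 windows and the octamer in 2. Within the IFN-γ list these were not the leading peaks, since the strongest member ranked 1195 by −log10 p.

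Over all members the median pileup was 15.0 fragments, with 5% of members at or below 9 and 5% at or above 34.0. The median fold enrichment was 5.05 and the median −log10 p 8.95 (range 3.49 to 119). Only 15 members (0.388%) were in the top 10% of the IFN-γ list and 874 (22.6%) in its upper 50%. Absence from the control list selects on strength, so these values are given as a description. The IFN-γ-only peaks inside coding genes had the same medians of fold enrichment and −log10 p, 5.05 and 8.95. The shared peaks stood at a median pileup of 27.0 and a −log10 p of 18.4, and the control-only peaks at 10.0 fragments in the shallower library. Member peaks were narrow, with a median width of 305 bp against 451 bp for shared peaks.

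The bases around the core followed the FLI1 consensus in a minority of members. The octamer searched was CAGGAAGT or CCGGAAGT on either strand, each match of which contains a core. It was present in 525 members (13.6%, 12.5% to 14.7%), against 1.37% of equally wide flanking windows, centred 1 kb to each side, a ratio of 9.91. The windows of the 3 strongest members with the octamer are shown with the octamer in capitals.
upstream of OSBPL3 (chr7:25028694-25028894, plus strand): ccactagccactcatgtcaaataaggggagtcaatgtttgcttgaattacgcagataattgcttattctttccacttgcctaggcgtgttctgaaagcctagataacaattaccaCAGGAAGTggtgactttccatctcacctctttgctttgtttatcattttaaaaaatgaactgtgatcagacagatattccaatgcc
upstream of NR5A2 (chr1:199691673-199691873, plus strand): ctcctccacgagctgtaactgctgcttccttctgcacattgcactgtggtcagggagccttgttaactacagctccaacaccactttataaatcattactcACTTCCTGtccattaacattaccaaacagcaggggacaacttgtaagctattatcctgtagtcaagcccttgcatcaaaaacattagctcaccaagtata
upstream of ANOS1 (chrX:8755266-8755466, plus strand): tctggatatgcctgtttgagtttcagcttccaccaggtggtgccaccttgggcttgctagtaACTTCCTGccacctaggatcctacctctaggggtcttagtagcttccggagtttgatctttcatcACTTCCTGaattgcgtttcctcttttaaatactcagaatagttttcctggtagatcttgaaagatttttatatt

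The window upstream of *OSBPL3*, an oxysterol-binding-like protein, belonged to a peak of 71 fragments over a background of 2.37. That upstream of *NR5A2*, a nuclear receptor, belonged to a peak of 73 fragments over 3.89. The peak 23.2 kb upstream of *ANOS1*, which encodes an extracellular matrix glycoprotein, had 56 fragments over 2.48 and 2 octamers. The next in strength were 12.4 kb upstream of *KIF27* (62 fragments) and 37.5 kb upstream of *BMAL1*, a circadian clock factor (66 fragments). Members with the octamer had a median −log10 p of 10.8 and those without it 8.86.

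The octamer lay close to the summit. In members that held it, the nearest one was a median of 20.5 bp away, and in 295 (56.2%) it was within 25 bp. The fraction with an octamer was 1.35 percentage points lower than in the IFN-γ-only peaks inside genes (14.9%, interval of the difference −3.03 to 0.314), which is within counting error. It was below that of the shared peaks (17.1%, difference −3.57 points, −5.25 to −1.89) and 5.22 points above the control-only peaks (8.36%, 3.39 to 6.93). The strict form CCGGAAGT was in 44 members (1.14%), against 2.40% of shared peaks, a difference of −1.26 points (−1.91 to −0.655).

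A GGAA core of any context was in 3774 members (97.6%) and in 82.9% of flanking windows, so its presence alone separates them little. Its number did so more clearly. A member window held a median of 4 cores against 2 in the flanks, and 1432 members (37.0%) had 5 or more against 7.05% of flanks. The share with 5 or more cores was also 37.0% among shared peaks and was 32.8% inside genes and 30.8% among control-only peaks.

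The rule removed runs of 4 or more GGAA units, and shorter runs remained. The longest run was 2 units in 389 members (10.1%) and 3 units in 260 (6.72%), together 649 members (16.8%) against 1.90% of flanking windows. This was 3.59 points (1.89 to 5.27) more than in peaks inside genes, 3.68 points (2.03 to 5.33) more than in shared peaks and 6.31 points (4.30 to 8.19) more than in control-only peaks. Most of the difference was in runs of 3 units, found in 6.72% of members, 3.19% of shared peaks and 0.729% of control-only peaks. In peaks inside genes the share was 4.16%, and members exceeded it by 2.56 points (1.48 to 3.62). At the limit of the rule, the 260 members with 3 units had a median pileup of 15.0 fragments, and the 297 peaks just outside it with 4 units had 17.0.

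Each of the 10 8-mers with the largest excess at the summit over the flanks contained GGAA. The first, AGGAAGGA, a core followed by the start of another, was in 667 members (17.2%) and 2.48% of flanks. AGGAAATG, which shares GGAAATG with the composite GGAAATGA, was in 582 members (15.1%) and 2.16% of flanks. CAGGAAGT, 1 of the octamers, was in 481 (12.4%) and 1.25%. AAGGAAGG was in 13.8% of members, 10.5% of IFN-γ-only peaks inside genes, 8.36% of shared and 5.84% of control-only peaks. CAGGAAGT was in 13.9% of peaks inside genes, 14.9% of shared and 7.49% of control-only peaks. The 8-mers were chosen by their excess in members, so these shares are a description.

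The composite GGAAATGA was searched after these 8-mers and the strongest windows had been seen. It was in 413 members (10.7%, 9.72% to 11.7%) and in 1.69% of flanks, a ratio of 6.31, and lay a median of 22.5 bp from the summit. Its share was 12.6% inside genes, a difference of −1.94 points (−3.49 to −0.419), 11.0% in shared peaks, a difference of −0.293 points (−1.75 to 1.15), and 6.03% in control-only peaks, a difference of 4.65 points (3.03 to 6.14). A heptamer with A or T in the middle, TGAATCA or TGATTCA, passes the rule. It was in 439 members (11.4%) and in 3.01% of flanks, and members that held it had a median −log10 p of 11.0 against 8.86 for the others. The members are therefore free of the exact AP-1 heptamer but not of sequence close to it, and without those 439 members 3428 would remain.

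Every member was placed in 1 class, by the first of these that applied. The octamer class held 525 members, and 388 (10.0%) had the composite without an octamer. A further 575 (14.9%) had a run of 2 or 3 units, 207 (5.35%) an ISRE, 529 (13.7%) had 5 or more cores and 1554 (40.2%) had 1 to 4 cores alone. The last 89 had no core. In all 93 members (2.40%) had none, of which 4 had an ISRE. Median −log10 p was highest in the octamer and composite classes, at 10.8 and 10.4, was 8.29 in peaks with 1 to 4 cores alone and 6.41 in those with none.

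The elements of the interferon pathway were compared next. ISRE was searched as GAAANNGAAA and GAS as TTCNNNGAA, on both strands, where N is any base. A GAS can share its outer bases with ETS cores on either strand, and an ISRE can begin in a core. The strongest member with a GAS and the strongest with an ISRE, which was the strongest of all, are shown with the element in capitals.
GAS, upstream of STRIT1 (chr3:155306193-155306393, plus strand): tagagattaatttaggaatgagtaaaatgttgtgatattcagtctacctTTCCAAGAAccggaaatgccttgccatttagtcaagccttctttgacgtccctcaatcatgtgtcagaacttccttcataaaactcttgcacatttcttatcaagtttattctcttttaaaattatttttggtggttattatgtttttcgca
ISRE, upstream of ATP2B1 (chr12:90036734-90036934, plus strand): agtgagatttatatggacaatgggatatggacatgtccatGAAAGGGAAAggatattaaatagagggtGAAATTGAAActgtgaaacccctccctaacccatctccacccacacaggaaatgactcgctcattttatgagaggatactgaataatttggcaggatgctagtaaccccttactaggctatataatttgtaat

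The peak with the GAS, chr3:155306044-155306513, had 54 fragments over a background of 2.32 and lay 12.6 kb upstream of *STRIT1*, which encodes a small peptide of muscle. The next were near *SUCLG1* (49 fragments, 761 kb away) and 8.46 kb downstream of the nearest TSS of *ZMYND15* (47 fragments, 2 GAS matches). For ISRE, the window upstream of *ATP2B1* held 2 matches, and the next peaks in strength were 12.3 kb upstream of *WDR5*, a subunit of histone methyltransferase complexes (72 fragments), and 302 kb upstream of *RSPO3*, a Wnt signaling ligand (54 fragments). The last of these had 23 cores and 3 ISRE matches in 1 window.

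ISRE was in 470 members (12.2%, 11.1% to 13.2%) and in 3.83% of flanks, a ratio of 3.18. The share was 10.5% in IFN-γ-only peaks inside genes, 5.29% in shared peaks and 3.38% in control-only peaks. Members exceeded these by 1.66 points (0.144 to 3.16), 6.87 points (5.58 to 8.15) and 8.77 points (7.34 to 10.1). Between members and shared peaks of the same strength, within the members' quartiles of −log10 p (6.17 to 13.4), the difference was 8.29 points (6.33 to 10.1).

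Many of the ISRE matches (299 of 470) lay in windows with 5 or more cores. Of such windows, 20.9% in members, 18.1% in peaks inside genes and 8.87% in shared peaks had an ISRE. The difference to peaks inside genes was 2.79 points (−0.449 to 5.95), which is within counting error. With fewer than 5, 171 of 2435 members (7.02%, 6.04% to 8.11%) had one, against 3.53% of flanks of the same kind, 6.79% inside genes and 3.18% of shared peaks. The difference to control-only peaks was then 4.72 points (3.27 to 6.04), that to shared peaks 3.84 points (2.57 to 5.12) and that to peaks inside genes 0.234 points (−1.28 to 1.72). An ETS core and an IRF half-site spaced as GGAANNGAAA were in 8.04% of members, 2.21% of flanks, 5.14% of shared and 3.05% of control-only peaks. In peaks inside genes the share was 7.36%, a difference of 0.681 points (−0.602 to 1.94), which is within counting error.

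GAS was in 373 members (9.65%, 8.73% to 10.6%) and in 6.76% of flanks, a ratio of 1.43. The share in members was 1.48 points (0.120 to 2.83) above peaks inside genes, 2.05 points (0.740 to 3.34) above shared peaks and 2.42 points (0.743 to 3.96) above control-only peaks. The flanks of these sets were also below those of members, at 6.33%, 5.59% and 5.37%. Their ratios of summit to flank were 1.29, 1.36 and 1.35, near that of members. Its nearest copy lay a median of 48.0 bp from the summit, and in 94 (25.2%) it was within 25 bp. With 5 or more cores, GAS was in 11.5% of members and 12.5% of flanks (9.91% to 13.3% and 9.82% to 15.5%), and with fewer it was in 8.54% and 6.33%. Within these classes the intervals of the difference to peaks inside genes included 0, at 1.46 points (−0.138 to 3.03) with fewer than 5 cores and 1.16 points (−1.42 to 3.64) with 5 or more. With 5 or more cores so did those to shared peaks, 1.58 points (−0.804 to 3.93), and to control-only peaks, −0.978 points (−4.64 to 2.25), while with fewer they were 2.32 points (0.785 to 3.84) and 3.66 points (1.84 to 5.30). Members with and without a GAS had the same median −log10 p, 8.95.

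Other motifs were a further contrast with the shared peaks. GGGCGG, the GC box of KLF and SP factors, was in 3.85% of members and 12.2% of shared peaks (difference −8.30 points, −9.59 to −7.05). The TFAP2 motif GCCNNNGGC was in 5.43% against 10.4% (−4.96 points, −6.24 to −3.71), and the NF-κB motif GGGANNNNCC in 9.39% against 15.5% (−6.11 points, −7.66 to −4.58). The summit windows of members also had less G and C, a median of 44.3% against 49.8% in shared and 52.2% in control-only peaks, and its part in these 3 differences was not tested. TTGCNNAA, the motif of C/EBP factors, was in 14.8% of members and 10.3% of their flanks, against 16.1% of shared and 9.42% of control-only peaks. The FOX motif TGTTTAC was at its flank level in members (3.21% and 3.22%), and the RUNX motif TGTGGT was in 14.8% with flanks at 13.4%. For AGATAA, bound by GATA factors, the share was 11.7% in members and 13.3% in flanks. TEAD (CATTCCA, which contains a core) was at 5.72% with flanks at 3.90%. E-boxes, searched as CACGTG and also as CAGCTG, were in 10.4% of members and 14.3% of shared peaks, and the CTCF motif AGGGGGC in 2.38% and 4.74%. The CRE (TGACGTCA) was in 0.181% of members and the p53 family motif CATGNNNNNCATG in 0.362%, the latter the same as in flanks. AACCGGTT, the element of GRHL factors, was in 0 members, which allows a share of up to 0.0776% by 3 counts (exact upper bound 0.0953%).

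In all, 19 motifs of a list were compared with 3 sets, giving 57 intervals that were not adjusted for their number. Against peaks inside genes, 2 motifs had intervals wholly above 0 and 1, FOX (3.21% against 4.20%), below. The 2 were GAS and ISRE, and within either class by number of cores their intervals included 0. Against shared peaks there were 4 above and 9 below, and against control-only peaks 6 above and 5 below. By this count the members differed least from the IFN-γ-only peaks inside genes, with which they share the library and the absence from the control list.

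The rule takes out long GGAA runs but no other repeats, and these were present. A perfect run of at least 20 bases of a unit of 1 to 6 bases was in 191 members (4.94%, 4.28% to 5.67%), most often of AAAG (44 members) and AC (28). The share was 4.53% in IFN-γ-only peaks inside genes, a difference of 0.409 points (−0.618 to 1.41) that is within counting error. The share in members was 2.20 points (1.32 to 3.09) above shared peaks and 3.22 points (2.20 to 4.13) above control-only peaks. A window was called unique if at least 90% of its 31-mers occur once in the genome. So defined, 3157 members (81.6%, 80.4% to 82.8%) were unique, which was 4.50 points (2.75 to 6.23) below peaks inside genes and 6.32 points (4.67 to 7.97) below shared peaks. In 33 members (0.853%) fewer than 10% of 31-mers were unique, and there reads may not be placed at 1 site. The median −log10 p was 8.95 in unique and 8.74 in other members.

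Some members had windows alike to those of other members. When windows were aligned to each other over at least 80 bases that included both summits, 426 members (11.0%) fell into 71 families of 2 or more, and 227 (5.87%) into 9 families of 10 or more. Repeat annotation was not used here, so the families are given by number and sequence. Each family was centred on a member window, and the other sets were counted by their match to it. This choice favours a higher share in members, so the differences in family shares between sets are a description. Family 3 had 32 members on 15 chromosomes with a median −log10 p of 12.4 (4.68 to 62.7), and 29 of them held TGAATCA or TGATTCA. Of its members, 2 are shown over 81 bases turned to 1 strand, with GGAA cores and the heptamer in capitals.
family 3a (chr15:57571213-57571293, plus strand): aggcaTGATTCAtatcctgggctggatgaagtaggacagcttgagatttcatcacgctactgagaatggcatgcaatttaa
family 3b (chr5:166723095-166723175, minus strand): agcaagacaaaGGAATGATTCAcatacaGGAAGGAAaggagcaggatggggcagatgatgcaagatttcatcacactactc

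The heptamer TGATTCA was in both, and the one named 3a had no core in this stretch. Family 3 made up 0.828% of members, 0.666% of IFN-γ-only peaks inside genes, 0.334% of shared peaks and 0 of 1508 control-only peaks, which allows up to 0.199% by 3 counts. Members exceeded shared peaks by 0.493 points (0.136 to 0.862) and peaks inside genes by 0.161 points (−0.272 to 0.573), which is within counting error. The strongest member without any core, chr6:26351370-26351747, 13.6 kb upstream of *BTN3A2*, a butyrophilin of the immunoglobulin superfamily, also belonged to family 3. It had 63 fragments over a background of 6.37, and its window is shown with TGAATCA in capitals.
no core, upstream of BTN3A2 (chr6:26351502-26351702, plus strand): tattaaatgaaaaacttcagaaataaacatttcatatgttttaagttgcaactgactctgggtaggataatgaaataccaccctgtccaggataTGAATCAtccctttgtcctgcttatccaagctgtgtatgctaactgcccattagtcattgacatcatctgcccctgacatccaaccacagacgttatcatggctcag

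Family 4 carried the FLI1 octamer in 15 of its 26 members, and 2 of them are shown with the octamer in capitals.
family 4a (chr7:106491480-106491560, plus strand): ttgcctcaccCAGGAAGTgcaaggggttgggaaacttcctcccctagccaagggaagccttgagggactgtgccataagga
family 4b (chrX:63330897-63330977, plus strand): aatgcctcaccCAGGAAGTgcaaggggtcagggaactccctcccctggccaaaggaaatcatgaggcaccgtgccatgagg

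Only 36.0% of the 31-mers in a typical family 4 window (the median) occur once in the genome. The family was less frequent among members (0.672%) than among shared peaks (1.79%), a difference of −1.12 points (−1.68 to −0.614). To control-only peaks (1.33%) the difference was −0.654 points (−1.40 to −0.0936). Inside genes the family was rarer (0.266%), and members exceeded that set by 0.406 points (0.0708 to 0.743). Family 1, with 51 members, was of purine and pyrimidine tracts, and 36 of its windows matched ISRE. Its share was 1.32% in members, 0.600% inside genes, 0.334% in shared and 0 in control-only peaks (up to 0.199% by 3 counts), with a difference to shared peaks of 0.985 points (0.574 to 1.42). Family 8 was small, with 10 members, of which 8 held an octamer and 8 a GAS.

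By position, the members were distal. The median distance from a member to the nearest TSS was 17613 bp (16660 to 18291), against 14972 bp (14304 to 15596) for shared peaks, 15216 bp (13976 to 16820) for control-only peaks and 11915 bp (11395 to 12455) inside genes. More than 10 kb lay between 2707 members (70.0%) and any TSS, and more than 100 kb between 261 (6.75%), the latter 2.95 points (1.92 to 3.98) more than for shared peaks. The nearest TSS belonged to a lncRNA gene for 41.5% of members and to a coding gene for 25.9%. Among shared peaks these shares were 41.0% and 28.8%. The summit was inside a lncRNA gene in 951 members (24.6%), inside a pseudogene in 49 (1.27%) and in no annotated gene in 2876 (74.4%). The nearest coding TSS was a median of 62396 bp away (58614 to 67492), against 44437 bp (41863 to 46862) for shared peaks, and 59.7% of members lay upstream of it.

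At the thresholds of position, the closest members to a TSS lay 3008 to 3010 bp away with 16 to 30 fragments, and the peaks left out at 2986 to 2993 bp had 9 to 15. The closest to a control peak, chr7:101728975-101729489, was 5 bp from it and had 11 fragments, and peaks left out for an overlap of 3 to 9 bp had 9 to 22 fragments. Such cases were few, since 192 members (4.97%) had a control peak within 1 kb and 1201 (31.1%) within 10 kb, with a median gap of 23309 bp.

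The genome outside coding genes and more than 3 kb from TSSs comes to 1438 Mb, over which members averaged 2.69 per Mb and shared peaks 2.29. Chromosome 20 had the densest set, 4.49 per Mb, and chromosome 18 (1.30) and chromosome X (1.49) the sparsest among chromosomes with members. Shared peaks were likewise dense on chromosome 20 (4.58 per Mb) and sparse on chromosome 18 (0.890) and chromosome X (0.875). On chromosome 20 there were 0.979 members per shared peak, so the high density there was not particular to members. Both of the sparse chromosomes also had the lowest median background, 1.54 fragments, and its part in the density was not tested. The number of members per shared peak ran from 0.554 on chromosome 22 and 0.646 on chromosome 19 to 1.52 on chromosome 10 and 1.71 on chromosome X, with chromosome 13 between the last 2 of these. Copy number in these cells was not analysed here.

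Members less than 50 kb apart were chained. By this measure 2558 stood alone and 1309 (33.9%) formed 550 chains, 16 of them with 5 or more. Whether this share exceeds that of the other sets or of evenly scattered sites was not tested. The longest chain held 11 members over 193 kb, chr8:29520787-29713906, in the region nearest to *DUSP4*, a phosphatase of MAP kinases, and *SARAF*, a regulator of store-operated calcium entry. The same span held 21 IFN-γ peaks, of which 7 were shared, and 7 control peaks, and the members in it had −log10 p from 5.30 to 35.7. The second held 10 members over 116 kb, chr20:50382216-50498370, next to *PTPN1*, a tyrosine phosphatase that acts on Janus kinases, with −log10 p from 4.97 to 34.5. There 6 of 19 IFN-γ peaks were shared, and 8 control peaks were present.

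Each member was assigned to the protein-coding gene with the nearest TSS of any annotated transcript, which names a neighbour and not a target. In this way 2473 of 20020 coding genes (12.4%) had a member, and 1881 (9.40%) had one within 100 kb. Of 40 IFN-γ response genes on a list, 11 (27.5%, 14.6% to 43.9%) had a member and 10 had one within 100 kb. For the same 40 genes the counts were 5 (12.5%) with IFN-γ-only peaks inside genes, 3 (7.50%) with shared peaks and 5 (12.5%) with control-only peaks, where 10.7%, 10.8% and 6.19% of all coding genes had such a peak. The length of intergenic sequence around the listed genes was not compared with that of other genes.

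At the level of signaling, a member lay 89.9 kb upstream of *IFNGR1*, a chain of the IFN-γ receptor, with 13 fragments over a background of 1.77. *SOCS3*, a feedback inhibitor of cytokine receptors, had a member 20.9 kb downstream of its nearest TSS with 21 fragments over 2.83. Among the transcription factors, *IRF8* had the strongest member of the list, 10.1 kb upstream at chr16:85888834-85889267, with 85 fragments over 6.02, a fold enrichment of 12.3 and GGAAATGA in its window. The member near *IRF2*, 53.3 kb downstream of that gene's nearest TSS, had 8 fragments and held 1 octamer and 2 GAS matches. At the depth of the control library this corresponds to 5.49 fragments, under the 6 of the weakest control-only peak. It belonged to family 8, and 41.5% of its 31-mers were unique.

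Among the effectors, *IDO1*, the first enzyme of kynurenine synthesis, had its member 15.1 kb upstream at chr8:39887001-39887240. It had 25 fragments over 1.93 (fold enrichment 8.86), or 17.2 fragments at the depth of the control library, with 5 cores and 1 GAS match, and the nearest control peak was 167 kb away. *CD274*, which encodes the checkpoint ligand PD-L1, had a member 3.49 kb upstream at chr9:5446597-5447159 with 21 fragments over 1.77 (fold enrichment 7.94, −log10 p 16.3), and its window held 1 GAS match and GGAAATGA. *GBP5*, a guanylate-binding GTPase, had a member 39.1 kb upstream with 37 fragments over 5.66.

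Among the antigen presentation genes, the member 4.24 kb downstream of the nearest TSS of *B2M*, the light chain of MHC class I, had 14 fragments over 2.48. It held an octamer, with 71.9% of its 31-mers unique. The member 19.9 kb downstream of the nearest TSS of *HLA-E*, a class I heavy chain, had 19 fragments over 3.19 and also an octamer. That 9.53 kb downstream of the nearest TSS of *HLA-DRA*, a class II chain, had 17 fragments over 2.61. It held 15 cores and 2 ISRE matches, and lay 0.0570 kb from a control peak. At the depth of the control library, pileups of these 3 correspond to 9.62, 13.0 and 11.7 fragments. The remaining gene of the list, *IL15*, had its member more than 100 kb away.

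Of 25 genes of squamous epithelium, 12 (48.0%, 27.8% to 68.7%) had a member. Of all coding genes, 12.4% had one. A shared peak was assigned to 16 of the 25 (64.0%, against 10.8% of all coding genes) and a control-only peak to 11 (against 6.19%), and the differences between these counts were not tested. The strongest member was 10.6 kb upstream of *TFAP2A*, a factor of epithelial differentiation, chr6:10429879-10430472, with 44 fragments over 3.54, a fold enrichment of 9.91 and an octamer. *KLF5* had a member 29.6 kb upstream with 25 fragments and GGAAATGA, and *PITX1* had one 16.9 kb upstream with 18. The members near *TP63*, the master regulator of squamous cells (16 fragments, 67.3 kb upstream), and *EGFR* (7 fragments, 76.4 kb upstream) were farther away, and the latter corresponds to 4.81 fragments at the depth of the control library. Those near *SOX2*, *KLF4*, *TFAP2C*, *ELF3* and *ITGA6*, had 11 to 27 fragments, and for 1 more gene the member was more than 100 kb away.

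Of 27 ETS family genes, 5 (18.5%, 6.30% to 38.1%) had a member, near the 12.4% of all coding genes. An IFN-γ-only peak inside a gene was assigned to 10 (37.0%), against 10.7% of all coding genes. The strongest within 100 kb was 72.9 kb upstream of *ELK3* with 31 fragments over 2.48, followed by *ETS2* (23 fragments, 69.2 kb), *ETV6* (12 fragments, 73.0 kb) and *ELF3* (11 fragments, 43.0 kb), a gene that is also on the epithelial list. Of 14 chromatin regulators, 0 had a member, which allows a share of up to 21.4% by 3 counts (exact upper bound 23.2%) and so does not separate the list from the 12.4% of all coding genes. IFN-γ-only peaks inside a gene were assigned to 4 of the 14 (28.6%, against 10.7% of all coding genes), and shared intergenic peaks to 0 (against 10.8%).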

How the data were processed

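The data were 2 FLI1 peak lists from HK1 cells with Flag-FLI1, 1 for control cells and 1 for cells given IFN-γ for 24 h. Input libraries were not analysed here. The authors used Cutadapt 1.18 for trimming, Bowtie2 2.3.4.1 for alignment (GRCh38), Picard for duplicates and MACS2 2.1.2 for peaks, with a stated p-value cutoff of 0.01. The lowest −log10 p in the deposited lists was 3.52 for control and 3.46 for IFN-γ, above that cutoff. The lowest −log10 q was 1.34 among members and 1.30 among control-only peaks, and a q-value cutoff for these lists is not stated. Whether the input entered the calling is not given in the sources used here. The deposited lists give for each peak the fold enrichment at the summit (a ratio to the local background), the −log10 of the p-value and q-value, and a display score by the authors that was not used. The lists state no read totals. No peak under the cutoff is listed, so absence from a list is not absence of binding.

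Pileup and background were solved for each summit from MACS2's formulas, with a largest relative error of 6.21e-06 in −log10 p. Genes came from GENCODE 44. Motifs were searched on both strands in the 201 bases around each summit and in windows 1 kb either side. Windows were aligned with blastn 2.17.0 (E-value 1e-8), and a family was a central window, the one with the most like members, with the windows that aligned to it. Scripts in Python 3.11.15 relied on scipy 1.17.1, numpy 2.4.6 and pandas 2.3.3, and were tested on simulated data.

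The members, the gene lists and the motif list were chosen with earlier results of these data known. The composite GGAAATGA, the heptamers TGAATCA and TGATTCA, the sequence families and the classes by number of cores were chosen after the sequences were seen. Regions were named by a rule, namely the 10 strongest members, the strongest 5 with the octamer and 3 each with GAS and ISRE, the strongest member within 100 kb of each listed gene, the 2 longest chains and the peaks next to each threshold. *PLN*, the printed families and family 8 were named after their values were seen. Alternatives were other q-value cutoffs, definitions of overlap, TSS, gene body and repeat, motif windows, k-mer length and depth scaling. With 1 library per condition no test of the treatment was made. Some genes and sequences that the rule names are not reported here.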

Additional observations from a re-analysis of the deposited data

How the results depend on the processing

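Of 54 alternatives over 11 results, 42 left the value within its error (counts within 1.5 times) and 12 moved it. A reversed direction was possible only for the octamer and ISRE differences between sets, and neither reversed. The number of members fell from 3867 to 2427 at a q-value under 1e-05 in the IFN-γ list and was 2876 to 4619 under the other definitions tried. The octamer share became 16.1% at a q-value under 1e-05. A narrower motif window (50 bp either side) gave 11.0% for the octamer, 4.58% for GAS and 7.32% for ISRE. The wider one gave 15.8%, 16.0% and 17.4% in the same order. How far the length searched alone accounts for these changes was not tested. The ISRE share was 9.34% in members with a unique window and 7.02% in those with fewer than 5 cores, and the share with 2-unit or 3-unit runs was 12.6% in unique windows. With 24-mers 71.8% of windows were unique. The subsets with unique windows and with few cores, the matched range of −log10 p for ISRE, the composite and the AP-1 heptamer with any middle base were chosen after seeing the data. All members lay on assembled chromosomes, so that alternative removed none. No paired analysis was possible because there was a single library of each kind. The depth of the libraries limits single peaks, since the median member rests on 15.0 fragments, or 10.3 at the depth of the control library.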

Other observations

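A summit window without any GGAA core was found in 2.13% of IFN-γ-only peaks inside genes, 1.03% of shared and 3.25% of control-only peaks. The members without any core within 100 bp of the summit numbered 93 (2.40%). Of these, 17 (18.3%, 11.0% to 27.6%) held TGAATCA or TGATTCA, against 11.2% of members with a core, a difference of 7.10 points (0.473 to 16.2), 1 of 17 features compared without adjustment. The strongest were 13.6 kb upstream of *BTN3A2*, with 63 fragments, and 160 kb upstream of *PLN*, which encodes phospholamban, with 37 fragments. Both belonged to family 3. The GC box was in 7 of the 93 (7.53%, 3.08% to 14.9%) and in 3.76% of the other members, a difference of 3.76 points (−0.125 to 11.0) that is within counting error. The median −log10 p of members without a core was 6.41.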
